A study of Mus musculus with 3 samples.

Results

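ATAC-seq cuts and tags DNA with the transposase Tn5 where chromatin is open, so stretches that collect many reads mark accessible DNA such as promoters, enhancers and the binding sites of factors that organise chromatin. The regions described here are the narrow, strong part of that map in the dentate gyrus, the entry stage of the hippocampus, whose main cells are the granule neurons. They were chosen from the peak lists of 3 animals. Peaks of different lists that overlapped by at least 1 bp were joined, and a region was kept when it lay on an autosome, was held by all 3 lists, had a joined span under 1000 bp, and had in every list a highest score within the top 20% of that list. Of 84529 joined regions, 36824 were held by all 3 lists and 35482 of those lay on the 19 autosomes. The rule kept 2907 of them, which is 8.19% of the autosomal regions held by all 3 lists. These 2907 regions are called members below. When replicate 3 was left out and the rule applied to the other 2 lists, it kept 4580.

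All 3 libraries carry the same label, E24, which is not spelled out, and they form 1 group with replicate numbers 1, 2 and 3. Each came from the microdissected dentate gyrus of 1 adult C57BL/6 mouse, 8 weeks old. The series asks how neuronal activation changes accessibility, but no unstimulated group was analysed here, so no condition was compared. The tissue holds several cell types, and a change in the number of cells of a type cannot be told apart from a change in accessibility per cell. The labelled tissue was not checked against marker genes, because positions were given in the mouse build mm9 and the gene table at hand is for GRCm38.

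The lists held 62912, 68699 and 48769 peaks in replicates 1, 2 and 3. Each peak has a score without a stated unit, given by the authors' peak calling. Scores ran from a floor near 50 up to 3100 in replicates 1 and 3 and up to 3213 in replicate 2. In every list, 5 peaks share the value of 3100 exactly. The score that opens the top 20% was 295, 344 and 206 in the 3 lists, in the order of replicates. Scores of different lists are not on a common scale, so they are set side by side mainly as percentiles, meaning the share of a list's peaks that score as low or lower. The sequencing depth is unknown, since no read counts were used.

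In general, a narrow open site with a strong signal can be a promoter or an enhancer, or a site of an insulator protein such as CTCF that keeps a small window of DNA free of nucleosomes. A second kind of narrow, strong signal is known from repeated DNA. Mouse chromosomes carry their centromere at one end, next to blocks of satellite repeat, and the nuclear genome also holds inserted copies of mitochondrial DNA. Reads from many repeat copies or from mitochondria can collect at the few places of a reference that represent them. No sequence of the build mm9 was at hand, so which of these the members are was not examined, and no sequence is shown.

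Of the 26979 autosomal regions under 1000 bp that all 3 lists held, 10.8% reached the top 20% in every list. Over all autosomal regions held by all 3 lists, 22.8% did. Of the 8096 regions in the top 20% of every list, 35.9% were under 1000 bp, against 76.0% of all autosomal regions held by all 3 lists. Both limits are those of the rule, so these shares are a description. The other strong ones, 5189 regions of 1000 bp or more, are called wide strong regions below, and the 24072 narrow regions that missed the score limit in at least 1 list are called narrow weaker regions. On the X chromosome 125 of 1317 shared regions met the limits of score and span, and on the Y chromosome 4 of 25 did. These are outside the rule and are not counted.

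**Figure D1:**
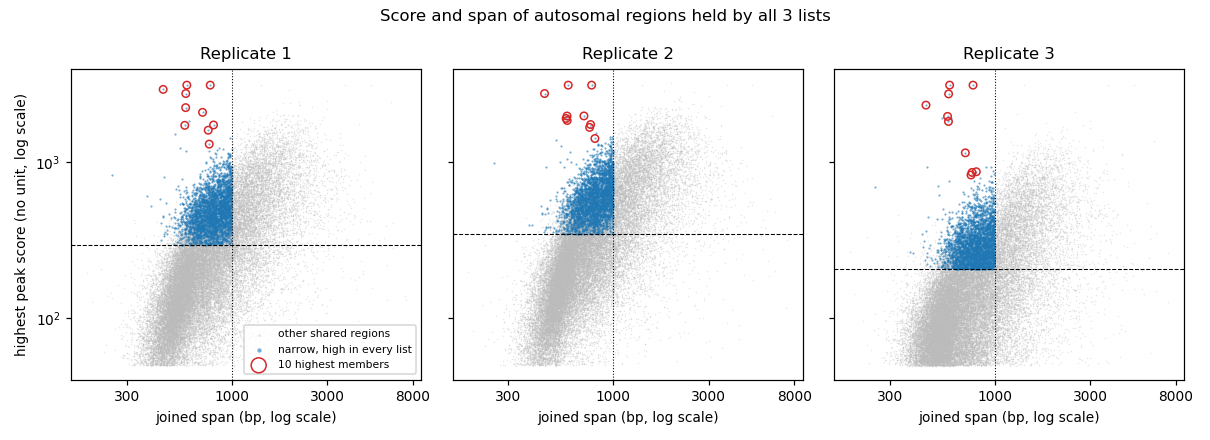
Joined span in bp (log scale) against the highest peak score in each list (no unit, log scale) for autosomal regions held by all 3 lists, 1 panel per replicate. Blue points are the 2907 members, grey points other shared regions, red circles the 10 members with the highest mean percentile, the dashed line the score limit of the list (295, 344 and 206) and the dotted line 1000 bp. The circles lie among the highest scores of regions of like span, but some members outside the 10 score higher in single lists than the lowest of them.

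The members filled the corner of this plot unevenly. Their median span was 811 bp, with a lowest of 254 and a highest of 999 bp, and 769 members (26.5%) lay between 900 and 999 bp, next to the limit. Only 148 were under 600 bp. The median width of the highest peak was 731, 750.0 and 562 bp in replicates 1, 2 and 3, so the members were narrowest in the list with the fewest peaks. Over all peaks of the lists the median widths were 504, 504 and 353 bp in the same order.

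Scores of the members spread from the limit upwards. In replicate 1 the lowest, median and highest score were 295, 472 and 3100. For replicate 2 the same 3 values came to 345, 573 and 3100. For replicate 3 they came to 206, 286 and 3100. The medians stood at percentiles 89.8, 90.2 and 87.8 of the lists. The score limit of the rule sets the floor of these percentiles, so where the medians stood is a description. Only 10 members (0.344%) were at or above percentile 99 in all 3 lists, against 1.05% of all autosomal shared regions and 6.98% of the wide strong regions. As the rule took the narrow regions, and score rose with span over shared regions (Spearman correlations across regions of 0.70, 0.74 and 0.58 in replicates 1, 2 and 3), nothing is read from that difference. Within the members the same correlations were 0.27, 0.37 and 0.17.

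The limits cut through a continuous range of values. The members closest to the span limit, all 999 bp, were chr12:56499389-56500387, chr13:8833461-8834459 and chr15:67163940-67164938. The first scored 635, 661 and 386 in replicates 1, 2 and 3. The regions just outside, all 1000 bp, were chr1:36501519-36502518, chr13:48973519-48974518 and chr13:105878982-105879981, and the first of these scored 404, 594 and 297. Near the score limit, chr7:4636170-4637105 was kept with a score of 294.8 in replicate 1 and chr11:6866717-6867597 with 294.9 there, against a limit of 294.7. On chr9:84088184-84088817, the score of 206.4 in replicate 3 was just above the limit of 206.2. The narrow regions that missed it most closely were chr7:56044010-56044986, with 206.23 in replicate 3, chr3:6865654-6866464, with 206.18 there, and chr16:63091104-63091940, with 344.34 in replicate 2.

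In shape the members were simple. In 2889 of 2907 members (99.4%, Wilson 95% interval 99.02 to 99.61%), every list had exactly 1 peak, against a background of 94.4% of all autosomal shared regions, 97.9% of the narrow weaker regions and 90.8% of the wide strong ones. The number of peaks in a region depends on its span, which the rule limits. In replicates 1 and 2 the number of peaks in members equalled the number of members, 2907, and the 2925 peaks of replicate 3 account for all 18 exceptions. The stretch covered by the highest peaks of all 3 lists together had a median length of 536 bp, or 68.8% of the joined span, and no member lacked such a common stretch. Replicate 2 set the left edge in 49.7% of members, replicate 1 in 44.2% and replicate 3 in 7.71%, and edges on the right were shared out in nearly the same way, at 50.4%, 44.3% and 7.22%. The peak of replicate 3 therefore seldom set an edge of the joined span. This was not particular to members. Over all autosomal shared regions, replicates 1, 2 and 3 set the left edge in 43.2%, 51.7% and 5.70%.

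The rule did not use peak centres, but joining by overlap and a span under 1000 bp limit how far apart they can lie. That they lay close together is therefore a description. The median distance between the centres of the highest peaks was 33.0 bp for replicates 1 and 2, 40.5 bp for replicates 1 and 3, and 41.0 bp for replicates 2 and 3. Centres were within 100 bp of each other in 93.0%, 87.7% and 87.1% of members. In narrow weaker regions the medians were 36.5, 42.0 and 41.5 bp. The members' mean over the 3 pairs was 38.2 bp ± 4.5 (SD, n = 3 pairs) against 40.0 ± 3.0, a mean difference of -1.83 bp ± 1.53 with the same sign in all 3 pairs. A two-sided exact sign-flip permutation test gave p = 0.25, the smallest p that 3 pairs allow, and the pairs share animals. The difference was positive, at 0.50 bp, when replicate 1 was left out and the members chosen again from the other 2 lists. It is therefore not shown that strong narrow regions were centred more exactly than weaker ones.

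The order of scores was shared between animals, but less tightly than in the wide strong regions or over all autosomal shared regions. Across the 2907 members the Spearman correlation of scores was 0.74 for replicates 1 and 2, 0.61 for replicates 1 and 3, and 0.56 for the remaining pair. In the wide strong regions these values were 0.91, 0.86 and 0.83, and over all autosomal shared regions they were 0.88, 0.79 and 0.78. In the narrow weaker regions they were 0.73, 0.54 and 0.54, no higher than in the members. They are given without a p because regions are not independent replicates, and because limits on score and span narrow the range of the members' scores. Within a member the percentiles of the 3 lists differed by a median of 4.28 points, from 0.00119 to 15.7, a range that the floor at percentile 80 keeps below 20. In the 3 widest disagreements replicate 3 was the low one. The member chr5:144492894-144493720 stood at percentiles 93.7, 97.1 and 81.3 in replicates 1, 2 and 3, with scores of 618, 1012 and 216. The member chr13:59174838-59175684 stood at 95.8, 94.8 and 80.8, and chr2:93850505-93851432 at 91.4, 95.6 and 81.1.

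The number given as score was lower in replicate 3 than in replicate 2 in nearly all members. As the lists have no common scale, this is no difference in accessibility, and the ratio serves only to set members against each other. Divided by the score of replicate 2, the score of replicate 3 had a median of 0.516, with 90% of members between 0.344 and 0.766, and that of replicate 1 a median of 0.830. The ratio of replicate 3 to replicate 2 moved with span. Its median was 0.662 in the 20 members under 500 bp, 0.607 in the 128 from 500 to under 600 bp, 0.550 in the 492 from 600 to under 700 bp, 0.520 and 0.507 in the next 2 steps of 100 bp, and 0.480 in the 769 of 900 bp or more. The ratio of replicate 1 to replicate 2 went the same way, from 0.933 in the narrowest step to 0.808 in the widest. The score limits of the rule themselves have ratios of 0.599 (replicate 3 to replicate 2) and 0.856 (replicate 1 to replicate 2), and the median score in replicate 2 ran from 466 in the narrowest step, nearer to its limit, to 668 in the widest. Since the rule used both score and span, the trend is a description and nothing is read from it. The number and the width of peaks also differed between the lists, and their part in it was not tested. By chromosome the members' median ratio of replicate 3 to replicate 2 ran from 0.464 on chromosome 7 to 0.547 on chromosome 13. Over all shared regions chromosomes 7 and 13 stood at 0.440 and 0.541, so the members followed their chromosomes.

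A few members stood far above the medians of all members. The 10 members with the highest mean percentile are given by the rule that named them, so their height is a description. No clear step set them off. The tenth had a mean percentile of 99.42, and chr10:95540036-95540645, outside the 10 and chosen after its values were seen, had 99.33. On chr9:35112573-35113353 and chr12:98299575-98300171, 781 and 597 bp long, all 3 lists had the shared value of 3100, so their order and their ratios carry no information. The third was chr12:3109810-3110264, only 455 bp long, with scores of 2912, 2740.3 and 2310.5 in replicates 1, 2 and 3. These 3 were the only members at or above percentile 99.9 in every list.

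The next 3 were also under 600 bp. The member chr6:103598880-103599468 (589 bp) scored 2227, 1968 and 1816 in replicates 1, 2 and 3. The member chr5:60433895-60434484 (590 bp) scored 2740.2, 1843 and 2724, at percentiles 99.99, 99.82 and 99.99. The member chr6:9839780-9840362 (583 bp) scored 1716, 1898 and 1957, at percentiles 99.88, 99.85 and 99.98. In none of these 3 members did replicate 3 fall to near 0.516 of replicate 2, its median over all members.

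In the other 4 the ratio was near that median. The member chr3:5860289-5861003 (715 bp) scored 2077, 1971 and 1145. The member chr5:147072350-147073112 (763 bp) scored 1597, 1665 and 826. The members chr16:11143861-11144632 (772 bp) and chr11:108872793-108873603 (811 bp) had scores in replicate 3 of 858 and 867, against 1301 and 1725 in replicate 1 and 1736 and 1414 in replicate 2. Their ratios of replicate 3 to replicate 2 lay between 0.494 and 0.613. Of the 10, 5 were under 600 bp, whereas 148 of all 2907 members were.

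**Figure D2:**
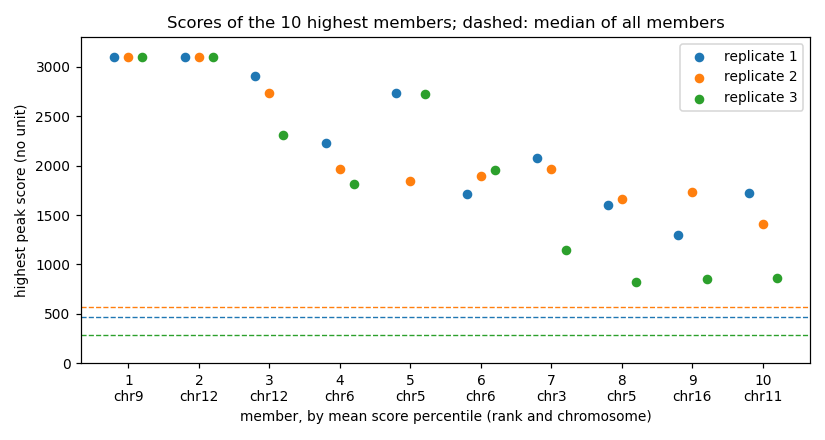
Highest peak score (no unit) in replicates 1, 2 and 3 for the 10 members with the highest mean percentile, ordered by it and labelled by rank and chromosome. Dashed lines are the medians of all members, 472, 573 and 286 in replicates 1, 2 and 3. In ranks 7 to 10 replicate 3 lies below both other animals by a wide margin, at 0.494 to 0.613 of replicate 2. In ranks 1 to 6 it stands at 0.8 of replicate 2 or more. At rank 5 it lies near replicate 1 and well above replicate 2.

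The same regions led when score was set against width. Score per bp of the highest peak had medians of 0.662, 0.784 and 0.533 in replicates 1, 2 and 3, and 99% of members were below 1.46, 1.60 and 1.33. The member chr12:3109810-3110264 reached 8.02, 6.20 and 6.94, which is the highest in replicates 1 and 2. The 5 members with the highest mean rank in score per bp were this one, the 2 at 3100, and both chromosome 6 members named above, all of them among the 10 highest by percentile. Score per bp contains the score that ranked those 10, so this overlap is a description. In replicate 3 the highest score per bp, 8.65, belonged to chr2:69193401-69193950, chosen after its values were seen, whose peak there was 222 bp wide. The narrowest of all members, also chosen after its values were seen, was chr13:77578109-77578362 with 254 bp, scores of 822, 983 and 694 and a common stretch of 215 bp.

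Members where replicate 3 scored as high as replicate 2 or higher were few, and their scores ranged widely. There were 13 of 2907 (0.447%, Wilson 95% interval 0.262 to 0.764%), against 0.328% of the wide strong regions, 12.0% of the narrow weaker regions and 8.51% of all autosomal shared regions. The members, like the wide strong regions, had to pass a score limit in every list, so this difference is not independent of the rule. All 13 were singled out after their values were seen, and 2 of them are the members at 3100, where the ratio is fixed at 1. The largest ratio, 1.65, was that of chr10:95540036-95540645, which scored 1823, 1157 and 1913 in replicates 1, 2 and 3. Next came chr2:69193401-69193950 at 1.51, with 1223, 1269.7 and 1921, and chr5:60433895-60434484 at 1.48. These 3 stood apart from the rest, since the fourth ratio was 1.20. Lower down, chr14:86598602-86599063 (462 bp) had nearly equal scores of 797, 933 and 933. The remaining members with a ratio above 1, apart from chr6:9839780-9840362, had scores of 329 to 536 in replicate 1, within the ordinary range of members. In 31 members (1.07%) the ratio was at least 0.9, against 11.9% of all autosomal shared regions, and 7 of them lay on chromosome 13, which holds 161 members and had the highest median ratio of all chromosomes.

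**Figure D3:**
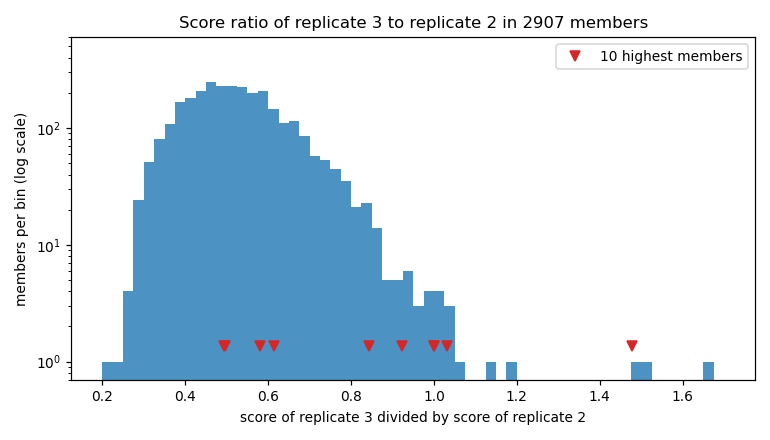
Number of members (log scale) by the score of replicate 3 divided by the score of replicate 2. Red triangles mark the 10 members with the highest mean percentile. The bulk lies around the median of 0.516, and 6 of the 10 triangles lie above 0.8, including both members at 3100, whose ratio is fixed at 1.

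Members near the start of a chromosome were looked for because centromeric satellite lies there. The position of the first peak in any list stands for the start, and it lay between 2999958 and 3282666 on the 19 autosomes. Within 0.1 Mb of it there were 2 members (0.0688%), against 0.0648% of all autosomal shared regions. Within 1 Mb there were 18 (0.619%) against 0.688%, and within 5 Mb there were 108 (3.72%, Wilson 95% interval 3.09 to 4.47%) against 3.48%. All 3 background shares lay within the Wilson intervals of the members, so no excess of members at chromosome starts was detectable. At the other end, 113 members (3.89%) lay within 5 Mb of the last peak of their chromosome, against 3.38% of all autosomal shared regions. With the distance between first and last peak divided into 5 equal parts, the members' shares were 20.3, 20.9, 21.8, 19.6 and 17.3%, against 19.9, 20.5, 20.2, 20.2 and 19.2% of all shared regions.

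Of the 5 members nearest to a chromosome start, 1 had an extreme score. It was chr12:3109810-3110264, already named, which began 15.9 kb after the first peak of its chromosome and had no other region for 125 kb after it. The nearest of all, chr5:3151905-3152723, began 10.2 kb after the first peak and had ordinary scores of 599, 658 and 256. The other 3 were chr15:3513841-3514571, chr6:3397323-3397894 and chr8:3621077-3621882, which began 362, 397 and 400.5 kb after the first peak. Their scores in replicate 1 were 372, 539 and 1010. The member on chromosome 12 is the only one of the 10 highest that lay within 1 Mb of a chromosome start. The lists held 0 peaks on any sequence other than the autosomes, X and Y, so no peak on mitochondrial DNA itself was listed. Whether any member matches satellite or mitochondrial sequence was not tested.

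Members were spread over the autosomes nearly in proportion to shared regions. Their share of the shared regions was lowest on chromosome 3 (201 of 2777, 7.24%, Wilson 95% interval 6.33 to 8.26%) and highest on chromosome 16 (113 of 1135, 9.96%, 8.35 to 11.8%). The intervals of chromosomes 5 and 16 lay above the overall 8.19% and no chromosome's interval lay below it. Under most alternatives of the rule the interval of chromosome 16 took in the overall share. With 19 chromosomes looked at, such single intervals are a description. Per Mb between first and last peak, chromosome 7 had the fewest members, 0.623, and chromosome 18 the most, 1.77. Members were 8.64% of the 1076 shared regions on chromosome 7 and 8.71% of the 1779 on chromosome 18. Both shares were near the overall one, so nothing about the members is read from the densities.

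**Figure D4:**
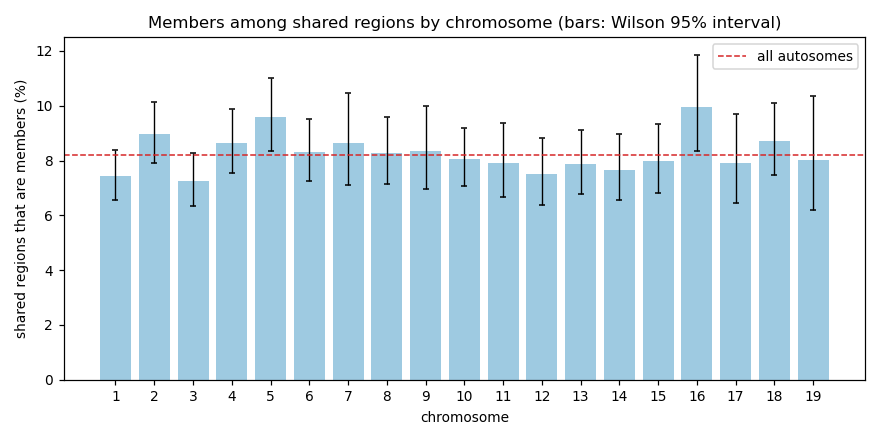
Share of autosomal shared regions that are members, in percent, for each chromosome, with Wilson 95% intervals, which cover counting error only. The dashed line is the share over all autosomes, 8.19%, and the bars run from 7.24% on chromosome 3 to 9.96% on chromosome 16.

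Neighbouring members were mostly far apart. The median gap between neighbours on a chromosome was 495 kb, with an interquartile range from 187 kb to 1.05 Mb and a longest gap of 8.56 Mb. Only 29 of 2888 gaps were under 10 kb. The size of such gaps depends on the number of members, and no other set of regions was measured for comparison, so nothing is read from it. The closest pair was chr16:57389698-57390619 and chr16:57391076-57392015, 456 bp apart, whose scores were 348, 498 and 285 in the first and 966, 928 and 398 in the second. A pair on chromosome 5, chr5:13667307-13668122 and chr5:13668711-13669455, was 588 bp apart, and another, chr5:45689918-45690848 and chr5:45692190-45692971, was 1341 bp apart. In the pair on chromosome 16 the second region scored higher in all 3 animals, while in the first pair on chromosome 5 the order was the same in all 3 but the gap in replicate 3 was small, 334 against 333.

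Among shared regions taken in order along the chromosome, the region after a member was itself a member in 289 of 2902 cases (9.96%, Wilson 95% interval 8.92 to 11.1%), against 8.19% of all autosomal shared regions. After a wide strong region it was a member in 7.58% of cases, and another wide strong region in 20.3%. After a member, the next was a wide strong region in 14.7%, and after a narrow weaker region in 13.3%. Of all 35482 autosomal shared regions, 5189 were wide strong. Runs of members without another shared region between them were short. There were 228 runs of 2, 26 of 3 and 3 of 4, and 2361 members stood alone.

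The fullest windows of 1 Mb held few members. On chromosome 1 from 140 to 141 Mb there were 8 members among 33 shared regions, and on chromosome 10 from 81 to 82 Mb there were 8 among 21. Windows where members made up most of the shared regions also occurred, such as chromosome 1 from 104 to 105 Mb with 5 of 8 chromosome 2 from 177 to 178 Mb with 6 of 11, and a window on chromosome 18 with 7 of 10. These windows were singled out after their values were seen.

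Around each member the distance to the nearest other peak of the same list was measured, which the rule did not use. Its median was 14.4, 13.4 and 17.7 kb in replicates 1, 2 and 3, a mean of 15.2 kb ± 2.2 (SD, n = 3). Wide strong regions had medians of 13005, 12215 and 16912 bp in the same order, and narrow weaker regions 10.3, 9.32 and 14.1 kb. By the median, members were thus farther from their neighbours than either kind in every animal. At the close end the order against the wide strong regions was the other way. The 5% quantile was 1534, 1262 and 2660 bp in members against 1987, 1603 and 2980 bp in wide strong regions. The mean difference between medians was 1.11 kb ± 0.33 (SD, n = 3) from the wide strong regions and 3.92 kb ± 0.33 from the narrow weaker regions. In both cases the two-sided exact sign-flip permutation test gave p = 0.25, which is the smallest p that 3 animals allow. The regions are the same in the 3 animals, so the animals do not give independent estimates of spacing. With members chosen again from 2 lists, the difference from the wide strong regions was 0.4995 kb without replicate 2, 0.7085 kb without replicate 3 and 1.39 kb without replicate 1. With other score limits it was 0.217 kb for the top 30% of each list and 2.37 kb for the top 10%.

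The same direction was seen for regions far from any other peak. In replicate 1, 10.6% of members had no other peak of the list within 50 kb, against 6.46% of the wide strong and 7.52% of the narrow weaker regions. The shares in replicate 2 were 9.60%, 5.26% and 6.67%. In replicate 3 the members stood at 14.6%, against 11.7% and 12.0%. The members' share was higher by 3.80 points ± 0.80 (SD, n = 3) than that of the wide strong regions and by 2.90 points ± 0.22 than that of the narrow weaker ones, in 3 of 3 animals each (exact sign-flip permutation test, two-sided, p = 0.25, again the smallest possible). Counting regions of any list, 35 members (1.20%, Wilson 95% interval 0.867 to 1.67%) had no other region within 100 kb. The share was 0.73% of all autosomal shared regions, 0.328% of the wide strong ones and 0.827% of the narrow weaker ones.

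Distances of a few kb were rarer than longer ones in the members. In replicate 1, 100 members had their nearest peak less than 1 kb away. Then 78, 74 and 62 members had it in the next 3 steps of 1 kb, and 107, 142 and 110 in the 3 after those. Replicate 2 went from 121 in the first step to 65 in the fourth and 143 in the sixth, and replicate 3 from 67 to 48 and 112. The same dip between 1 and 4 kb appeared in the wide strong regions, with 162, 98, 105, 145, 278 and 294 in the first 6 steps of replicate 1. In the narrow weaker regions the numbers in replicate 1 fell from 1811 in the first step to 1117 in the fourth and stood at 1239 in the sixth, a shallower course. The settings of the peak calling were not given in the sources used here, and their part in this dip was not tested.

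**Figure D5:**
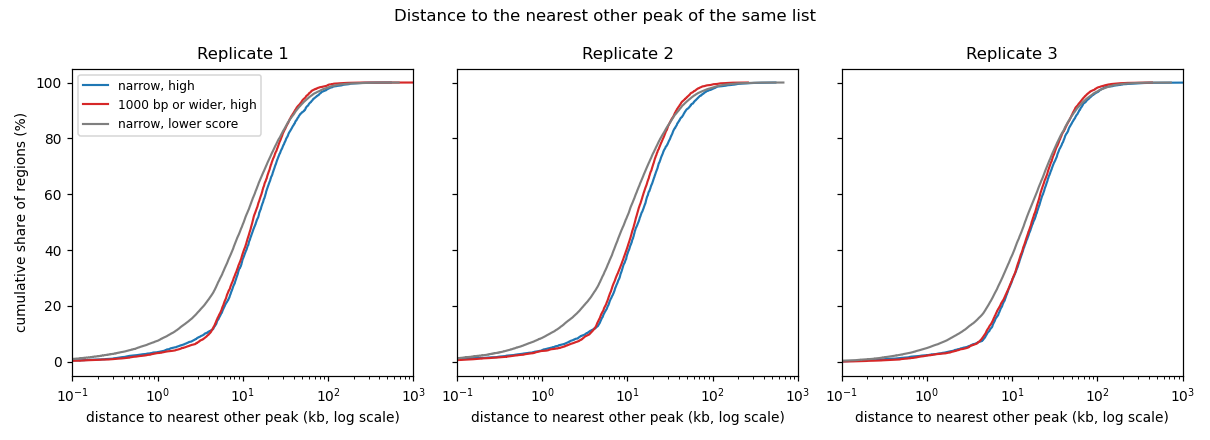
Cumulative share of regions in percent by the distance in kb (log scale) to the nearest other peak of the same list, 1 panel per replicate, for members (blue), wide strong regions (red) and narrow weaker regions (grey). The blue line runs to the right of the others above about 10 kb in each panel, with medians of 14.4, 13.4 and 17.7 kb.

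The 5 most isolated members differed in score. The member chr7:11080190-11081084 had no other region of any list for 618 kb before and 546 kb after it, and scored 528, 523 and 418 in replicates 1, 2 and 3. The members chr4:110589018-110589606, chr14:95755800-95756742 and chr12:94520067-94520822 were 298, 264 and 258 kb from the nearest region and scored 396, 838 and 577 in replicate 1. The highest-scoring of the 5 was chr9:19426018-19427015, 998 bp long and 244 kb from the nearest region, with scores of 1205, 1340 and 838, at percentiles 99.1, 98.9 and 99.1. Among the 10 highest members, the distance to the nearest region of any list ran from 5.04 kb on chromosome 3 to 94.8 kb at chr12:98299575-98300171. The 2 members at 3100 were 36.5 and 94.8 kb from any other region, beyond the members' median of 11.1 kb. Score and distance to the nearest region were only weakly related across members, with Spearman correlations of 0.089, 0.109 and 0.090 in replicates 1, 2 and 3. At so low a value nothing is read from them.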

How the data were processed

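Peak lists from ATAC-seq of 3 dentate gyrus samples, 1 list per sample, were used. Per the submitters' processing notes, Bowtie2 was the aligner and mm9 the genome build. Peak names are those of MACS, per the names in the lists. The sources used here do not say how duplicate or mitochondrial reads were handled, whether read ends were shifted for Tn5, or which versions and settings were used. The authors deposited 1 score per peak, with no unit stated. Such a score depends on depth, which is unknown, so intervals on shares of regions (Wilson) cover counting error only.

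Joining, percentiles, spacing and comparisons were computed with pandas 2.3.3, numpy 2.4.6 and scipy 1.17.1 under Python 3.11.15, plotted with matplotlib 3.10.9, and tested on simulated lists. The score limit was the 80% quantile of all scores of a list, ties included. Positions count from 1. Errors are SD over 3 replicates.

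The members and the rule were chosen with earlier results of these data known. Regions named were the 10 highest by mean percentile, the 5 nearest to a chromosome's first peak, the 5 highest by score per bp, the 5 most isolated, the 3 closest pairs, the 3 with the widest percentile difference, and 3 on each side of each limit; none on chromosome 18 is named. Others are said to be chosen after their values were seen. Alternatives were other limits of score and span, reciprocal overlap and leaving out each replicate. Gene and motif annotation was not computed, since no genome or annotation of mm9 was used.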

Additional observations from a re-analysis of the deposited data

How the results depend on the processing

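For 10 results, 82 alternatives were computed, of which 62 were counted as unmoved, 18 as moved and 2 as turned in sign. The bound was the Wilson interval for shares, the SD for means and a factor of 1.5 for the count. The 2 differences between kinds of region were judged by their sign alone, so the number of unmoved values holds some that moved beyond their SD. The number of members follows the limits by construction. It was 720 with the top 10%, 5743 with the top 30%, 1352 under 800 bp, 6023 under 1500 bp, and 3693 to 4580 without 1 replicate, highest without replicate 3. The share with 1 peak in every list was 100% with the top 10%, 98.99% with the top 30%, 99.85% under 800 bp, 96.98% under 1500 bp, 100% with reciprocal overlap of 50%, and 99.25% to 99.98% without 1 replicate. The mean distance between peak centres was 32.8 bp under 800 bp and 50.2 bp under 1500 bp. Its difference from narrow weaker regions turned to 7.0 bp under 1500 bp and to 0.50 bp without replicate 1, in a range of -3.00 to 0.50 bp without 1 replicate. The mean score correlation was 0.78 under 1500 bp. The share near a chromosome start was 1.41% within 2 Mb and 7.67% within 10 Mb, which the limit sets. The relative density on chromosome 3 was 0.73 with the top 10% and 1.01 under 800 bp, against 0.88. On chromosome 16 it was 1.04 with the top 10% and 1.09 under 1500 bp, against 1.22. Among the alternatives its Wilson interval stayed above 1 only with reciprocal overlap of 50% (from 1.03) and without replicate 3 (from 1.01). The difference in median distance to the nearest peak, longer in members than in wide strong regions, kept its sign in all 8 alternatives. It was smallest, 0.217 kb, with the top 30%, largest, 2.37 kb, with the top 10%, and 0.4995 to 1.39 kb without 1 replicate, against 1.11 kb. The cause of these moves was not tested. The alternatives for chromosomes 3 and 16 and for both differences were added after seeing the data. Read depth is unknown, so a missing or weak peak is not shown to be closed chromatin. No paired analysis was possible because the 3 replicates form a single group, so no 2 groups could be paired; the sign-flip tests pair kinds of region within a replicate.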
